A study of Cucumis melo with 4 samples.

Results

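Among the melon (Cucumis melo) genes assigned to binding sites of CmNOR, 65 carry the Gene Ontology (GO) name transaminase activity. They were chosen from the peak list by that name alone, out of 4510 genes assigned to any peak and 3406 with at least 1 GO name. Because the list holds only genes with an assigned peak, every member has a peak by the way it was chosen, and having a peak is not a result. The 65 genes hold 82 of the 5493 peaks. In 50 of them the only names are catalytic activity, transaminase activity and pyridoxal phosphate binding, and these are called the 3-name genes here. The other 15 carry at least 1 further name or lack 1 of the 3.

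CmNOR is a NAC-family transcription factor named after the tomato NON-RIPENING gene. DAP-seq, the assay used to map its sites, exposes melon genomic DNA fragments to a protein expressed in E. coli and sequences the fragments that stay bound. In 2 libraries the protein was MBP-His-CmNOR, that is CmNOR joined to a maltose-binding (MBP) and a His tag, and the other 2 are negative controls with MBP-His, the tags without CmNOR. As the assay uses naked DNA and bacterial protein, it has no chromatin, no plant partner proteins and no fruit tissue. The values are 1 combined peak list with positions, widths and assigned genes. It has no column for a library, no enrichment and no p-value, so library depth is unknown and CmNOR was not compared with the tag here. All statements are descriptions of this list without a test, and intervals on shares are 95% exact binomial (Clopper-Pearson) intervals that cover counting error only.

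Transaminases, also called aminotransferases, move an amino group from an amino acid to a keto acid and use pyridoxal phosphate, a form of vitamin B6, to carry it. Plants use them to make and break down amino acids, to recover photorespiratory carbon and to form precursors of chlorophyll. In melon fruit, aminotransferases that act on branched-chain and aromatic amino acids yield keto acids from which aroma volatiles are formed. The names in the list do not say which reaction the 3-name genes carry out, and for the other 15 only a few names do. Whether the products of the 3-name genes are transaminases at all was not tested, and how the GO names were assigned is not stated, so for these genes the name is a label and not a known function. Of the 65 identifiers, 0 were found in the RefSeq gene table, and each gene is known here by its identifier and GO names, with no sequence.

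The combination of the 3 general names was frequent in this list. Of 1420 different sets of GO names in the list, it ranked 5 by number of genes, with 50. How many melon genes without a peak carry the same set is unknown here, so the rank says nothing about a preference of CmNOR. Close relatives by name were few. MELO3C018201.2 on chromosome 4 has catalytic activity and pyridoxal phosphate binding without transaminase activity, and its peak lay 8453 bp upstream. In all, 11 assigned genes had pyridoxal phosphate binding without transaminase activity.

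Of the transaminase genes outside the 3-name set, 4 have names that give a reaction. MELO3C018572.2 is annotated with glutamate-1-semialdehyde 2,1-aminomutase activity, the plastid enzyme that forms 5-aminolevulinate for chlorophyll and heme. It lies on chromosome 1 at 1175951 to 1179775, and its single peak, 443 bp wide, was 4806 bp upstream. The authors' list places that peak in exon 12 of 15 of the neighbouring gene MELO3C018571.2. MELO3C008136.2 on chromosome 3 is annotated with L,L-diaminopimelate aminotransferase activity, a step of plant lysine synthesis. Both its peaks were distal, 12006 and 14262 bp from the gene start on the downstream side and beyond the gene end.

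Both genes annotated for aspartate and phenylalanine aminotransferase activity had 2 peaks, and each had a peak within 2 kb of the gene start on one side or the other. Aspartate aminotransferases link amino acid and organic acid metabolism, and the names of these genes give L-aspartate and L-phenylalanine as substrates with 2-oxoglutarate as acceptor. MELO3C003577.2 on chromosome 4, at 2407984 to 2413726, had 1 peak that began 248 bp inside the gene and 1 in a 3′ UTR at 4585 bp. MELO3C004980.2 on chromosome 12, at 5139685 to 5144912, had 1 peak 1703 bp upstream and 1 that began 1625 bp inside the gene. The gaps between the paired peaks were 3872 bp and 3327 bp. MELO3C035046.2 on chromosome 11, whose names include cellular amino acid metabolic process without a substrate, had its peak 5445 bp upstream.

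The remaining transaminase genes outside the 3-name set have broader names. MELO3C002288.2 on chromosome 12 also has carbon-sulfur lyase activity, and a peak that lay 1258 bp inside the gene. MELO3C020066.2 on chromosome 10, a gene of 394 bp with the added name transferase activity, had a peak covering its start. MELO3C030975.2 on chromosome 4, named for transaminase and transferase activity, had a peak 1843 bp upstream. MELO3C017571.2 on chromosome 7 had a peak in a 3′ UTR, 3461 bp from its start.

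The peaks of the others lay 2523 to 28225 bp from the gene start. MELO3C032487.2 on chromosome 7, which adds biosynthetic process and transferase activity, had a peak 2523 bp upstream. The chloroplast-annotated genes MELO3C010339.2 and MELO3C029387.2, both on chromosome 2, had peaks 5155 and 10351 bp upstream, and MELO3C015151.2 on the same chromosome had one 6687 bp upstream. On chr0, the sequence that conventionally collects unplaced parts of melon assemblies, MELO3C027855.2 had a peak 9767 bp upstream. MELO3C027457.2, also on chr0, had 2 peaks 26295 and 28225 bp from its start, beyond the gene end.

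Few 3-name genes had a peak close upstream. A centre at most 2 kb before the gene start was found for 2 of 50, 4.00% (0.488 to 13.7). Among the other transaminase genes it was 2 of 15, or 13.3% (1.66 to 40.5), and among all genes with a GO name 17.8%. The 2 other transaminase genes were MELO3C004980.2 and MELO3C020066.2, while the centre of the peak of MELO3C030975.2 fell outside the limit. MELO3C029985.2 on chromosome 3, at 16800598 to 16802424, had a peak of 433 bp at 16802663 to 16803095, 239 bp upstream. MELO3C029062.2 on chromosome 1 had one of 448 bp, 1602 bp upstream. Peaks covered the start of 2 more 3-name genes, MELO3C034760.2 on chromosome 11 and MELO3C033043.2 on chromosome 8, with their centres just inside the gene. No other 3-name gene had its start covered. The share was 4.00% of the 50 (0.488 to 13.7), close to the 4.4% of all genes with a GO name.

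By the authors' promoter class, which takes in any peak within 3 kb of the gene start on either side, the 3-name genes counted 17 of 50, or 34.0% (21.2 to 48.8). The other transaminase genes counted 6 of 15, or 40.0% (16.3 to 67.7), against 49.0% of all genes with a GO name. Most of the 17 promoter-class peaks of the 3-name genes were not upstream. By centre, 4 lay upstream, 8 inside the gene and 5 beyond its end. In the other transaminase genes 4 of 7 promoter-class peaks lay upstream and 3 inside, while over all other genes with a GO name 50.0% lay upstream and 9.71% beyond the end. In a gene shorter than 3 kb, a peak of this class can lie past the gene end. MELO3C034784.2 on chromosome 11, 357 bp long, had its peak 478 bp from its start and past its end, and MELO3C030188.2 on chromosome 3, 340 bp long, had one 865 bp from its start and past its end.

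Counting all 63 peaks of the 3-name genes, 30 lay beyond the gene end, 47.6% (34.9 to 60.6), 23 upstream (36.5%) and 10 inside (15.9%). In the other transaminase genes 4 of 19 lay beyond the end, 21.1% (6.05 to 45.6), and 10 upstream. Over the 4025 peaks of all other genes with a GO name, 24.3% (23.0 to 25.6) lay beyond the end and 50.7% upstream. Distal intergenic peaks made up 40 of the 63 (63.5%, 50.4 to 75.3), 9 of the 19 and 42.3% of the 4025. Some genes hold several of these peaks, so intervals over peaks, here and below, are too narrow.

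**Figure D1:**
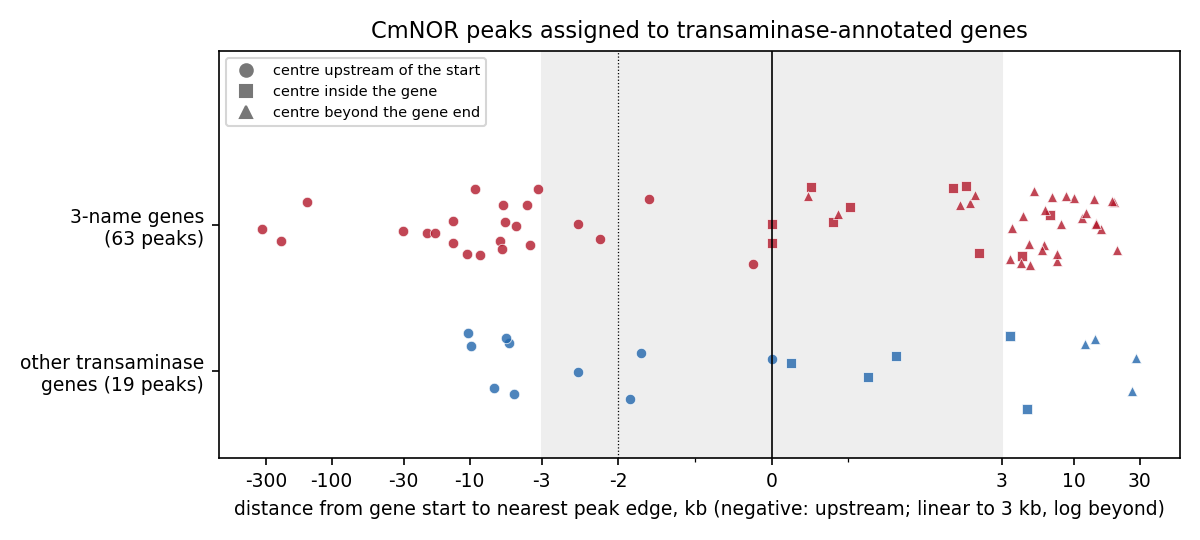
Signed distance from the gene start to the nearest peak edge in kb for each peak of the 3-name genes (top, 63 peaks) and the other transaminase genes (bottom, 19 peaks), on an axis that is linear to 3 kb and logarithmic beyond. Symbols give the side of the peak centre, grey marks the 3 kb promoter class and the dotted line 2 kb upstream; 30 of the 63 peaks in the top row are triangles beyond the gene end, against 4 of 19 in the bottom row.

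Peaks of the 3-name genes lay a median of 5811 bp from the gene start (quartiles 2676 and 11780 bp). The median was 4806 bp in the other transaminase genes (1773 and 10059 bp) and 3761 bp in all other genes with a GO name (1440 and 9620 bp). The 95% order-statistic intervals of the first 2 medians, 4217 to 7562 bp and 1703 to 10351 bp, overlapped. Their order depended on counting every peak. With only the nearest peak of each gene, the median was 4447.5 bp (3198 to 5883) for the 3-name genes. For the other transaminase genes it was then 4806 bp (1625 to 9767). The farthest 3 peaks of the 3-name set belong to the same gene, MELO3C032745.2 on chromosome 7, at 150076, 231182 and 317150 bp upstream, with gaps of 80799 and 85615 bp between them. The next farthest lay 30150 bp upstream of MELO3C028854.2 on chromosome 1.

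Of the 3-name genes, 9 had 2 or more peaks, 18.0% (8.58 to 31.4), and so did 4 of the 15 other transaminase genes, against 14.8% of all genes with a GO name. The interval holds the share of all genes with a GO name. The closest peaks within a gene were a pair 393 bp apart, both about 20 kb from the start of MELO3C034375.2 on chromosome 10, at 19693 and 20700 bp beyond the start and past the gene end. MELO3C027610.2 on chr0, 803 bp long, had 3 peaks 6021, 9190 and 10390 bp upstream, with gaps of 654 and 1404 bp. MELO3C030136.2 on chromosome 3 had 1 peak 2529 bp inside the gene and 2 outside it, 14556 and 15758 bp from the start. These last 2 stood 816 bp apart and were classed as downstream and 5′ UTR, both outside the assigned gene. MELO3C035493.2 on chromosome 12 had peaks on both sides, 4586 and 13286 bp upstream and 12153 bp beyond the start. MELO3C034837.2 on chromosome 11 had peaks 5718 bp upstream and 8806 bp from the start past the end.

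The other 3-name genes with several peaks were MELO3C031923.2 (chromosome 6, 6120 and 10063 bp), MELO3C033748.2 (chromosome 9, 2703 bp, inside the gene, and 13875 bp) and MELO3C034455.2 (chromosome 10, 5883 and 19021 bp). All 6 of these peaks lay downstream of the start, and all except the inside one lay past the gene end. Among all members, 2 neighbouring pairs had gene midpoints within 100 kb, both on chromosome 11. They were MELO3C034760.2 with MELO3C034759.2 at 80.3 kb and MELO3C034837.2 with MELO3C034846.2 at 48.0 kb. The same count was not made over other genes, so whether it is low or high is unknown.

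The 3-name genes were short. Their median length was 1776.5 bp (95% order-statistic interval 1353 to 2161), against 3825 bp in the other transaminase genes (1861 to 5086). All other genes with a GO name had a median of 3378 bp (3245 to 3509). Of the 50, 37 were under 3 kb, 74.0% (59.7 to 85.4), compared with 7 of 15 other transaminase genes and 45.2% of all other genes with a GO name. The genes with no GO name were shorter still, with a median of 447.5 bp.

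At the short end were MELO3C031441.2 on chromosome 5 with 201 bp, MELO3C030188.2 with 340 bp, MELO3C034784.2 with 357 bp, MELO3C033397.2 on chromosome 8 with 462 bp and MELO3C031482.2 on chromosome 5 with 619 bp. The distances to their peaks ran from 478 bp for MELO3C034784.2 to 7562 bp for MELO3C033397.2. At the long end was MELO3C016238.2 on chromosome 7 with 16622 bp and a peak 3198 bp upstream. It was followed by MELO3C033748.2 with 9292 bp, MELO3C034760.2 with 7848 bp, MELO3C035397.2 on chromosome 12 with 7665 bp and MELO3C032518.2 on chromosome 7 with 7263 bp. Each of the last 4 had a peak that touched the gene, and that of MELO3C035397.2 lay in its exon 5 of 7. A further exon peak lay in exon 4 of 11 of MELO3C035011.2 on chromosome 11.

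**Figure D2:**
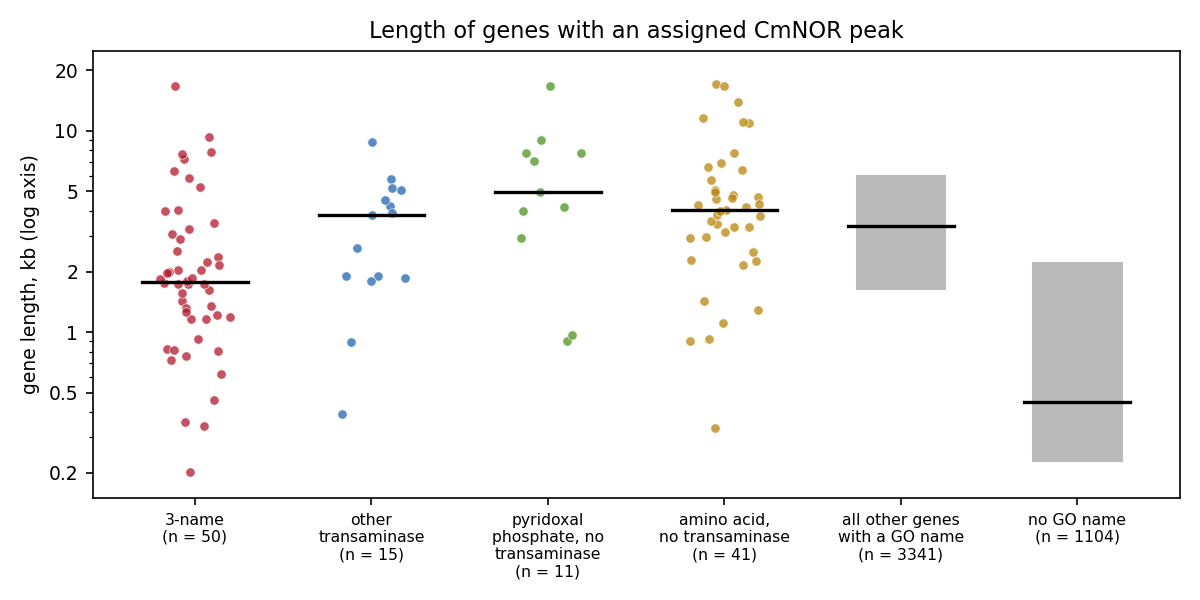
Length in kb on a log axis of each gene with an assigned peak, for the 3-name genes, the other transaminase genes and the 2 comparison lists (points, 1 per gene), and of all other genes with and without a GO name (grey boxes from the lower to the upper quartile). Black bars are medians, 1776.5 bp for the 3-name genes, 3825 bp for the other transaminase genes and 3378 bp for all other genes with a GO name.

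The 3-name genes sat away from chromosome ends. Positions were taken as the gene midpoint in percent of the distance from base 1 to the last listed peak of the chromosome, since no chromosome lengths were at hand. Of the 48 on numbered chromosomes, 37 lay in the inner 60%, 77.1% (62.7 to 88.0). Of the other transaminase genes 6 of 13 did, 46.2% (19.2 to 74.9), against 45.9% (44.2 to 47.6) of all other genes with a GO name. In the first 10% of the span there were 0 of the 48, 3 of the 13 and 16.1% of the others, and in the last 10% there was 1 of the 48, MELO3C029233.2 at 90.9% of chromosome 1. Genes with no GO name also lay inside, 68.1% (65.2 to 70.9).

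All 12 numbered chromosomes and chr0 held a 3-name gene. Chromosome 11 held 9 (18.0% of the 50, against 8.14% of all other genes with a GO name) and chromosome 7 held 7 (14.0% against 7.24%). Chromosomes 2, 4, 6, 12 and chr0 held 2 each. The strands were even, with 25 genes on each. Gene density of the whole genome was not measured. Among listed genes, a 3-name gene had a median of 11 others with a midpoint within 500 kb, the other transaminase genes also 11, and all other genes with a GO name 13.

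**Figure D3:**
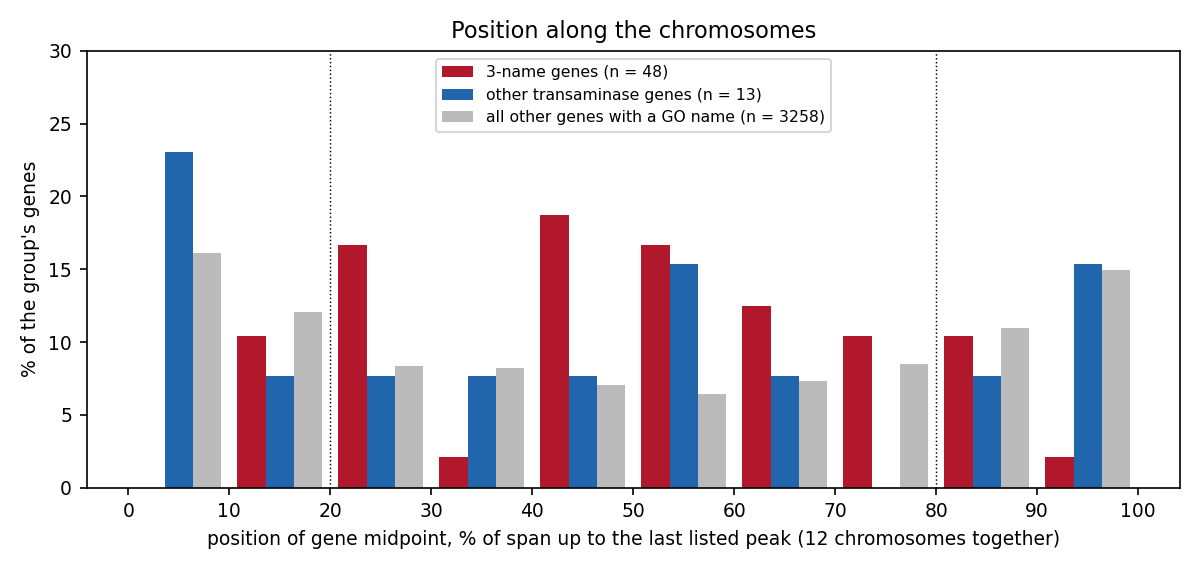
Share of each group's genes in % (vertical axis) by position of the gene midpoint in % of the chromosome span (horizontal axis, 10% steps, 12 chromosomes together) for 48 3-name genes, 13 other transaminase genes and 3258 other genes with a GO name. Dotted lines bound the inner 60%, which held 77.1% of the 3-name genes, 46.2% of the other transaminase genes and 45.9% of the rest.

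Over all other genes with a GO name the promoter-class share differed with position, and over the 3-name genes the inner and outer intervals overlapped. In the inner part, 13 of 37 3-name genes had a promoter-class peak, 35.1% (20.2 to 52.5), and the 1495 other genes with a GO name had 34.8% (32.4 to 37.3). Over all positions the shares were 34.0% of the 3-name genes and 49.3% of the other genes with a GO name. In the outer parts it was 3 of 11 3-name genes, 27.3% (6.02 to 61.0), against 62.7% of the other genes. The median distance from peak to gene start was 6001.5 bp for inner 3-name genes, against 6390 bp for the other inner genes. The upstream count, with a limit of 2 kb, was 2 of 37 in the inner part, 5.41% (0.662 to 18.2), against 13.2% (11.5 to 15.0) of the other genes, with overlapping intervals. In the outer parts it was 0 of 11 3-name genes (upper limit 28.5%) against 22.3% of the other genes. By side, 25 of 48 peaks of inner 3-name genes lay beyond the gene end, 52.1% (37.2 to 66.7), against 29.2% (27.1 to 31.3) of the others. Among inner genes under 3 kb it was 20 of 34, 58.8% (40.7 to 75.4), against 38.1% (34.8 to 41.3), and the intervals overlapped. Several of these peaks share a gene, so the intervals are too narrow.

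**Figure D4:**
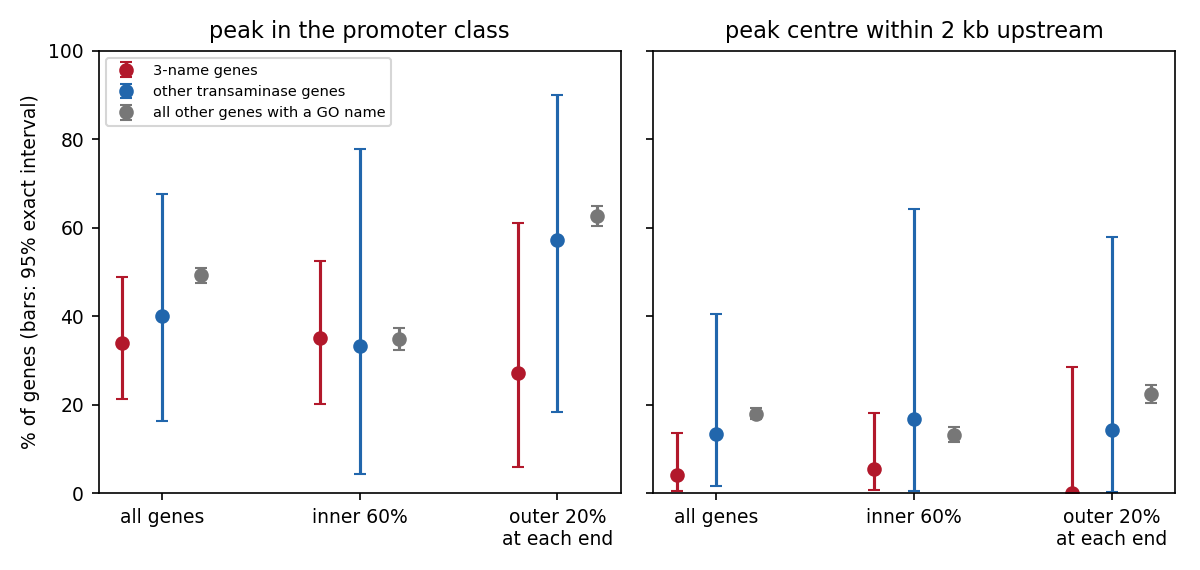
Share of genes in % with a promoter-class peak (left) and with a peak centre within 2 kb upstream (right), over all positions, in the inner 60% and in the outer 20% at each end, with 95% exact intervals. In the inner part the promoter-class shares were 35.1% for 3-name genes and 34.8% for all other genes with a GO name, while the upstream shares were 5.41% and 13.2%.

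Most 3-name genes had high identifier numbers. Identifier numbers of 27000 or more were carried by 48 of the 50, 96.0% (86.3 to 99.5), by 6 of the 15 other transaminase genes and by 17.6% (16.3 to 18.9) of all other genes with a GO name. The exceptions were MELO3C003796.2 on chromosome 4 and MELO3C016238.2 on chromosome 7. Among all listed genes in this range the median number was 28913 on chromosome 1 and 35496 on chromosome 12. Chromosomes 3, 6, 7, 9 and 11 and chr0 also held numbers below 28577, the lowest on chromosome 1. Of the 641 GO-annotated genes in the range, 54 were transaminase-annotated, 8.42% (6.39 to 10.8), compared with 11 of 2765 below it, 0.398% (0.199 to 0.711). The limit of 27000 was set after values were seen, and the intervals do not cover that choice. What the numbers stand for was not looked up. These shares cover genes with a peak only, and the same shares over all melon genes are unknown here.

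Within that range the median length of the 3-name genes was 1745.5 bp, against 1588 bp for the 587 other genes with a GO name in the range. Of the placed 3-name genes 80.4% were in the inner part, against 71.6% of those other genes. A promoter-class peak was found for 33.3% of the 3-name genes and 32.9% of the other genes in the range. The upstream share at 2 kb was 4.17% (0.509 to 14.3) for the 3-name genes, against 13.1% (10.5 to 16.1) for the others, and the intervals overlapped. Of the peaks of 3-name genes 49.2% (36.1 to 62.3) lay beyond the gene end, against 36.7% (33.1 to 40.3) of the others, which overlapped too.

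Peak widths of the 3-name genes had a median of 454 bp (406 to 509), those of the other transaminase genes 465 bp (327 to 548) and those of all other genes with a GO name 423 bp (418 to 428). The intervals overlapped. The 3-name set held 4 of the 100 widest peaks of the whole list, which are those of at least 804 bp. That was 6.35% of its 63 peaks, against 1.76% of the 4025 peaks of all other genes with a GO name. No interval was computed for these shares. The widest of all, 1765 bp, and one of 813 bp belong to MELO3C027610.2 on chr0. MELO3C029644.2 on chromosome 2 had one of 1224 bp, 20498 bp upstream, ranked 10. MELO3C030160.2 on chromosome 3 had one of 995 bp, 7523 bp from the start and past the gene end, ranked 31. Width is no measure of enrichment.

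A list of genes with an amino acid name in GO and without transaminase activity held 41 assigned genes, of which 7 also have pyridoxal phosphate binding. The names are not all of metabolism, since 4 genes have a name of amino acid transport, MELO3C019798.2 one of protein acetylation, and MELO3C032225.2 is a protein kinase gene with amino acid binding. The centre of a peak lay at most 2 kb upstream in 12 of them, 29.3% (16.1 to 45.5), an interval that holds the 17.8% of all genes with a GO name. Of the 12, MELO3C012281.2 and MELO3C032588.2 are transport genes and MELO3C019798.2 is a protein acetylation gene. MELO3C006993.2 has CTP synthase activity and is listed for the name glutamine metabolic process. MELO3C023314.2 has dihydrofolate reductase and thymidylate synthase activity and is listed for glycine biosynthetic process, and a peak covered its start. Peaks covered the starts of the tryptophan synthase gene MELO3C002475.2 on chromosome 12, which forms the last step of tryptophan synthesis, and of the arogenate and prephenate dehydratase gene MELO3C007396.2 on chromosome 8, on the route to phenylalanine. They also covered the start of the phenylalanine-degrading ammonia-lyase gene MELO3C014226.2 on chromosome 8. Upstream peaks lay at 144 bp for the histidine synthesis gene MELO3C029404.2 on chromosome 2, at 843 bp for the threonine aldolase gene MELO3C004421.2 on chromosome 5 and at 1629 bp for the proline dehydrogenase gene MELO3C022076.2 on chromosome 9. The 6 genes named last were picked from the 12 after their values were seen. Of the 40 placed genes 13 were in the inner part (32.5%, 18.6 to 49.1, against 45.9% of all other genes with a GO name). A peak centre at most 2 kb upstream was found for 1 of those 13, 7.69% (0.195 to 36.0), against 13.2% of the other inner genes with a GO name. In the outer parts it was 11 of 27, 40.7% (22.4 to 61.2), against 22.3% (20.4 to 24.4) of the non-transaminase genes with a GO name. These outer intervals overlapped.

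The 11 pyridoxal phosphate genes without transaminase activity had a median length of 4983 bp, with a 95% interval of 973 to 8962 bp that holds the 3378 bp of all other genes with a GO name. Of their 18 peaks 15 were distal intergenic, 83.3% (58.6 to 96.4), against 42.3% of the peaks of all other genes with a GO name, and 5 of the 18 belong to 1 gene. Of these genes 2 had a peak centre at most 2 kb upstream, 18.2% (2.28 to 51.8) against 17.8% of all genes with a GO name. They were the methionine S-methyltransferase gene MELO3C016448.2 on chromosome 6 at 197 bp and the cysteine desulfurase gene MELO3C014533.2 on chromosome 5 at 1551 bp. The glycine hydroxymethyltransferase gene MELO3C020429.2 on chromosome 5, which interconverts serine and glycine, had 5 peaks between 8644 and 42297 bp from its start. Of the 10 on numbered chromosomes, 8 lay in the inner part. The glutamate decarboxylase gene MELO3C025078.2 on chromosome 9 had its peak 6311 bp upstream.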

How the data were processed

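The authors deposited 1 table of 5493 peaks with coordinates and distances in bp, a location class and GO names, per the file headers; it holds no score. Per the submitters' processing notes, MACS2 and deepTools were used. The sources used here do not give versions, thresholds, aligner, build, annotation or the way 4 libraries became 1 list. Width and distance were recomputed exactly, and the promoter class held exactly the peaks up to 3 kb from a gene start, in all 5493 rows. Which library supports a peak is unknown, so groups enter no test.

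Members had the GO name transaminase activity. The members and lists were chosen with earlier results of these data known, and the limits of 27000 for identifier numbers and 3 kb for length after values were seen. Named genes are all members outside the 3-name set and, within it, those with upstream, start, extreme, several or neighbouring peaks or extreme length. In upstream shares and counts of genes, a peak centre within 2 kb before the gene start is meant unless another window is given. For the side or distance of a peak, upstream has no limit. Membership, the 2 kb upstream count and the upstream side were checked on simulated data first. No simulated peak centre lay close to the 2 kb limit. Gene length was taken as given in the list, so its check there could not fail. The other measures were not checked in that way. Alternatives were windows of 1 and 3 kb, overlap of at least 1 bp, wide peaks, other end zones, without chr0, and inner genes (added later). Others were peak centres in place of edges or gene midpoints, the nearest or widest peak of each gene and 1 value per peak. The last were catalytic activity not required and all assigned genes as comparison. Python 3.11.15, numpy 2.4.6, pandas 2.3.3, scipy 1.17.1 and matplotlib 3.10.9 were used.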

Additional observations from a re-analysis of the deposited data

How the results depend on the processing

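Of 74 alternatives to 19 shares and medians, 68 stayed within the 95% interval of the value reported and 6 moved out of it. Not requiring the name catalytic activity left the same 50 and 15 genes, so those alternatives could not move. The intervals of small groups were wide, as for 2 of 15 (1.66 to 40.5%), so a value could change much and stay within them. With end zones of 10% the inner share was 97.9% for the 3-name genes and 90.2% for all transaminase genes, and with zones of 30% it was 50.0% and 47.5%. Over the other genes with a GO name these zones gave 68.9% and 29.0%, so the 3-name genes stayed more inner than those genes. The zones were not varied for the comparison lists or for genes with no GO name. With only peaks of at least the median width, 0.00% of the other transaminase genes had a peak within 2 kb upstream (0 of 10). With all assigned genes as comparison, 46.8% had a promoter-class peak in place of 49.3%. The windows of 1 and 3 kb gave 1 and 4 of the 50 3-name genes with an upstream peak, against 9.85% and 24.6% of the other genes with a GO name. Counting any overlap of at least 1 bp with the 2 kb window gave 4 of the 50 (2.22 to 19.2%), 2 times the main count, against 21.7% of the other genes. No paired analysis was possible because the list has no value per library. For the same reason no library could be left out, and depth limits could not be given.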
